A study of Homo sapiens with 6 samples.

Results

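The genes described here are 10 regulators of the G1/S transition of the cell cycle, taken by name from the 18372 genes tested on the arrays. They were chosen with earlier results of these data known. They are the D cyclins CCND1 and CCND3, their kinases CDK4 and CDK6, the E cyclins CCNE1 and CCNE2, their kinase CDK2, the kinase inhibitor CDKN1B (p27), the retinoblastoma gene RB1 and the transcription factor E2F1. Each was read by 1 probe set that carries no other gene symbol, and all 10 were measured. The cells were A375, an established human melanoma line with a mutant BRAF kinase, sampled 72 h after transfection with a negative control siRNA (3 arrays) or with siFAH, an siRNA against fumarylacetoacetate hydrolase (3 arrays). All 6 arrays thus share the line, the transfection and the time, and the silencing is transient, in 1 line. The labels do not say which of the study's FAH siRNAs was used. The question for these genes is whether the messages that time entry into S phase changed when FAH was silenced.

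In G1, growth signals raise the D cyclins, which activate CDK4 and CDK6 to phosphorylate RB. Phosphorylated RB lets go of E2F factors, which then switch on the E cyclins and the genes of DNA synthesis, and cyclin E with CDK2 completes the phosphorylation of RB. CDKN1B binds and inhibits cyclin E with CDK2, and its protein is destroyed as cells enter S phase. In melanoma the D cyclin and CDK4 arm is often overactive, because the BRAF and ERK pathway drives CCND1 and because inhibitors of CDK4 are often lost.

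The kinases CDK2 and CDK4 and the cyclin CCND1 fell after FAH silencing, to 62.0%, 67.5% and 74.3% of the control signal, and the inhibitor CDKN1B rose to 119.8%. The other 6 genes did not pass the test, and CDK6 was the nearest to it. In all, 4 of 10 genes were called at an adjusted p under 0.05 (limma, adjusted over all genes), 3 lower and 1 higher, where 9.86% of all genes tested were called, 6.38% lower and 3.48% higher. Without siFAH replicate 3, 2 of the 10 were called, and calls over all genes went from 1811 to 657, or 3.58%. With an ordinary t statistic 0 of the 10 passed, and over all genes it made 14 calls. At an unadjusted p under 0.05 that statistic had 5 of the 10, against 21.4% of all genes. The split over all genes by limma was 1172 lower and 639 higher, and it became 1678 and 416 when each array was centred on its median. The siFAH arrays lay wholly below the control arrays for 6 of the 10 genes, against 18.6% of all genes, and wholly above them for 1, against 13.4%. The median log2 fold change of the 10 genes was -0.15, against 0.0050 for all genes. With all genes ranked by signal into 10 equal bins, the 10 genes lie in bins 7 to 10, where the median change of all genes ran from -0.032 (bin 7) to -0.11 (bin 10).

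On the log2 scale FAH itself read 5.48, 5.59 and 5.68 with control siRNA and 4.92, 4.60 and 4.92 with siFAH. The groups did not overlap, and the fall of 0.77 (log2, standard error, SE, 0.10) had an adjusted p of 0.00213 in limma. Array medians were 4.996, 4.972 and 4.922 with control siRNA and 5.011, 5.003 and 5.038 with siFAH, so every siFAH median was above every control median. Correlations between arrays were from 0.995 to 0.997 within groups and from 0.9881 to 0.9953 between groups. Of 6 melanocyte genes measured, MITF, SOX10 and S100B were above the median signal of all genes (5.46) and the pigment genes PMEL, MLANA and TYR were below it, and none of the 6 was called. Of 13 keratinocyte, fibroblast and leukocyte genes measured, KRT10 rose (0.45, adjusted p = 0.0213), LYZ fell (-0.51, adjusted p = 0.0147) and 11 were not called. Mean log2 signals of these 13 ran from 2.32 (PTPRC) to 6.04 (LYZ) with control siRNA and from 2.50 (PTPRC) to 5.73 (COL1A1) with siFAH. Their part in the results for the G1/S genes was not tested. With 3 arrays in each group an exact permutation test cannot give a p below 0.1. The labels call the arrays replicates, and the methods call them biological replicates. In bulk RNA of this kind, fewer cells in a phase of the cycle and less mRNA per cell cannot be told apart.

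**Figure D1:**
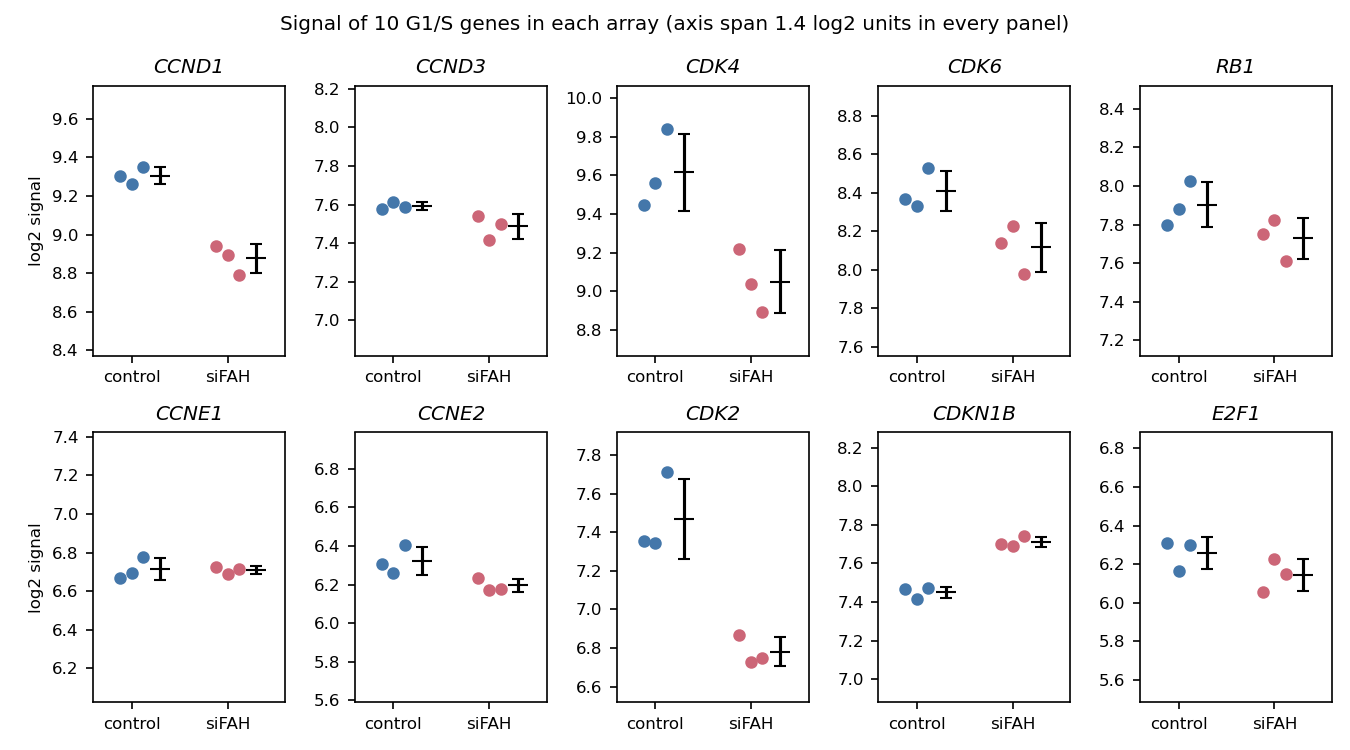
Log2 signal (vertical axis) of each of the 10 genes in the 3 control arrays (blue) and the 3 siFAH arrays (red), with the mean and SD of each group in black. Every panel spans the same range of the log2 scale, so the drops of CDK2, CDK4 and CCND1 and the smaller rise of CDKN1B can be compared by eye, while CCNE1 is level.

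CDK2, the kinase that works with cyclin E, had the largest change of the 10. Its log2 signal was 7.35, 7.34 and 7.71 with control siRNA and 6.87, 6.72 and 6.75 with siFAH. Control replicate 3 stood above the other controls, and a gap of 0.48 separated the lowest control from the highest siFAH array. The means were 7.47 ± 0.21 (SD, n = 3) and 6.78 ± 0.08 (SD, n = 3), which gave a log2 fold change of -0.69 (95% interval from -0.91 to -0.47, adjusted p = 0.00368 from limma). The call held as each array was left out in turn, with a change between -0.75 and -0.57. In melanocytes CDK2 is known as a target of the lineage factor MITF, and it lies next to the pigment gene PMEL. MITF itself had a log2 fold change of -0.03 and PMEL of -0.0047, and for both the groups overlapped.

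CDK4, a kinase partner of the D cyclins, read 9.45, 9.56 and 9.84 with control siRNA and 9.22, 9.04 and 8.89 with siFAH. The 3 siFAH values were all lower than the 3 control values, with a gap of 0.23 between the groups. Its log2 fold change was -0.57 (95% interval from -0.81 to -0.32, adjusted p = 0.0128 from limma). Without siFAH replicate 3 it was -0.49 and the adjusted p was 0.0529. The gene TSPAN31, which overlaps CDK4 in the RefSeq annotation, had -0.19 (adjusted p = 0.208), and its groups overlapped.

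The 300 bases around the start of CDK4 are shown because the gene fell and because they hold 3 copies of the E-box CACGTG, the letters that MYC and its relatives bind. The run is chr12:57752261-57752560 of GRCh38.p14 on the minus strand, from RefSeq, from 250 bases before the start to 50 after it, with the E-boxes in capitals. Counted from the start, they begin at bases -216, -196 and -101.
CDK4: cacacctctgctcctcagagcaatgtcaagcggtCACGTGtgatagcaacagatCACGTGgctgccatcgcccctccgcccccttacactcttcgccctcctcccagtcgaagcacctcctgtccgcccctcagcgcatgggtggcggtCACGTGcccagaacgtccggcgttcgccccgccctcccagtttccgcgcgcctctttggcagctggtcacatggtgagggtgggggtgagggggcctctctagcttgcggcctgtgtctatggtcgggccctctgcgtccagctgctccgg
Of 35116 such windows in RefSeq, 7.26% hold CACGTG at least once and 0.094% hold it 3 or more times. CACGTG reads the same on both strands. Windows were given for 7 of the 10 genes. None was given for CDK2 and CCND1, which also fell, or for CCNE2. Of the 7, CDK6 also holds the E-box, once and 30 bases after 1 of its 2 starts. CCND3, CCNE1, CDKN1B, RB1 and E2F1 hold none.

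CDK6, the other kinase of the D cyclins, read 8.37, 8.33 and 8.53 with control siRNA and 8.14, 8.23 and 7.98 with siFAH. The groups did not overlap, with a gap of 0.10. The log2 fold change was -0.29 (95% interval from -0.48 to -0.10), with an adjusted p of 0.0564 from limma, so CDK6 was not called. Its adjusted p was 0.0364 with each array centred on its median, 0.0222 with dim probe sets left out and 0.0280 with eBayes set to trend and robust. Under the other settings it stayed above 0.05, among them 0.0859 after quantile normalization, 0.127 after cyclic loess, and from 0.0703 to 0.193 as each array was left out. It also passed the limits that the methods state for SAM, which are 1.2-fold and an unadjusted p under 0.05.

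CCND1 encodes cyclin D1, the D cyclin that ERK signaling drives in melanoma. Its log2 signal was 9.30, 9.26 and 9.35 with control siRNA and 8.94, 8.90 and 8.79 with siFAH. Both groups were tight, and 0.32 lay between them. The log2 fold change was -0.43 (95% interval from -0.58 to -0.27, adjusted p = 0.00576 from limma), and the call held when any 1 array was left out. CCND3, the cyclin D3 gene, read 7.58, 7.61 and 7.59 with control siRNA and 7.54, 7.42 and 7.50 with siFAH. All siFAH values were lower than all control values, but by only 0.03 at the nearest, and the log2 fold change of -0.11 did not pass the test (95% interval from -0.25 to 0.04, adjusted p = 0.348).

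The E cyclins activate CDK2 and are themselves E2F targets. CCNE1 read 6.67, 6.70 and 6.78 with control siRNA and 6.73, 6.69 and 6.71 with siFAH, and the groups overlapped. The log2 fold change was -0.0048, with a 95% interval from -0.15 to 0.14 (adjusted p = 0.975), and its sign turned after quantile normalization (0.039) and cyclic loess (0.048). CCNE2 read 6.31, 6.26 and 6.40 with control siRNA and 6.24, 6.17 and 6.18 with siFAH. The groups did not overlap, by 0.03, and the log2 fold change of -0.13 was not called (95% interval from -0.28 to 0.02, adjusted p = 0.264). The genes INTS8 and NDUFAF6, which overlap CCNE2 in the RefSeq annotation, had -0.12 (adjusted p = 0.402) and 0.11 (adjusted p = 0.362).

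CDKN1B, which encodes the CDK inhibitor p27, was the only one of the 10 to rise. It read 7.47, 7.42 and 7.47 with control siRNA and 7.70, 7.69 and 7.74 with siFAH. Both groups were tight, with an SD of 0.03 each, and 0.22 separated them. The log2 fold change was 0.26 (95% interval from 0.12 to 0.40, adjusted p = 0.0304 from limma). The call was lost when any 1 of the 6 arrays was left out, with adjusted p values from 0.0508 without control replicate 1 to 0.107 without siFAH replicate 3, while the change stayed between 0.24 and 0.27. Centring each array on its median gave 0.21 (limma adjusted p = 0.0845). Quantile normalization gave 0.33 (limma adjusted p = 0.0132) and cyclic loess 0.35 (limma adjusted p = 0.0108). In the deposited values, at 1.198-fold, the rise is just short of the 1.2-fold limit of the methods.

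The promoter of CDKN1B is shown beside that of CDK4 as the one whose gene rose. It is chr12:12717118-12717417 of GRCh38.p14 on the plus strand, from RefSeq, with the CCAAT box (CCAAT, which reads ATTGG on the other strand), the letters that NF-Y binds, in capitals.
CDKN1B: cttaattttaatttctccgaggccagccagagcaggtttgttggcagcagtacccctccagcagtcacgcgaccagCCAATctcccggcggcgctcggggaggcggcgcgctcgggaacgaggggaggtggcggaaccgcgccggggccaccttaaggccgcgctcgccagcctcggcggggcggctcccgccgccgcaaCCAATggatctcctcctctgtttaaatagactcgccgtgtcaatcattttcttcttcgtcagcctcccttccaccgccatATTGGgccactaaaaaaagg
It holds 3 CCAAT boxes. Of all windows, 3.26% hold 3 or more and 34.6% hold at least 1. The boxes are not particular to the gene that rose, as E2F1, which was not called, also holds 3. CCND3, not called either, holds 1 in some of its windows. FOXO factors are known activators of CDKN1B. The FOXO letters TGTTTAC, searched on both strands, were not in this window and are in 3.42% of all windows.

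RB1, the brake that the D cyclin kinases release, read 7.80, 7.88 and 8.03 with control siRNA and 7.75, 7.82 and 7.61 with siFAH. The groups overlapped, and the log2 fold change was -0.17 (95% interval from -0.36 to 0.01, adjusted p = 0.218). E2F1, the activator that RB holds back, read 6.31, 6.16 and 6.30 with control siRNA and 6.06, 6.23 and 6.15 with siFAH. Its groups overlapped too, with a log2 fold change of -0.11 (95% interval from -0.28 to 0.05, adjusted p = 0.370). LPAR6, which lies within RB1 in the RefSeq annotation, had 0.21 (adjusted p = 0.111).

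**Figure D2:**
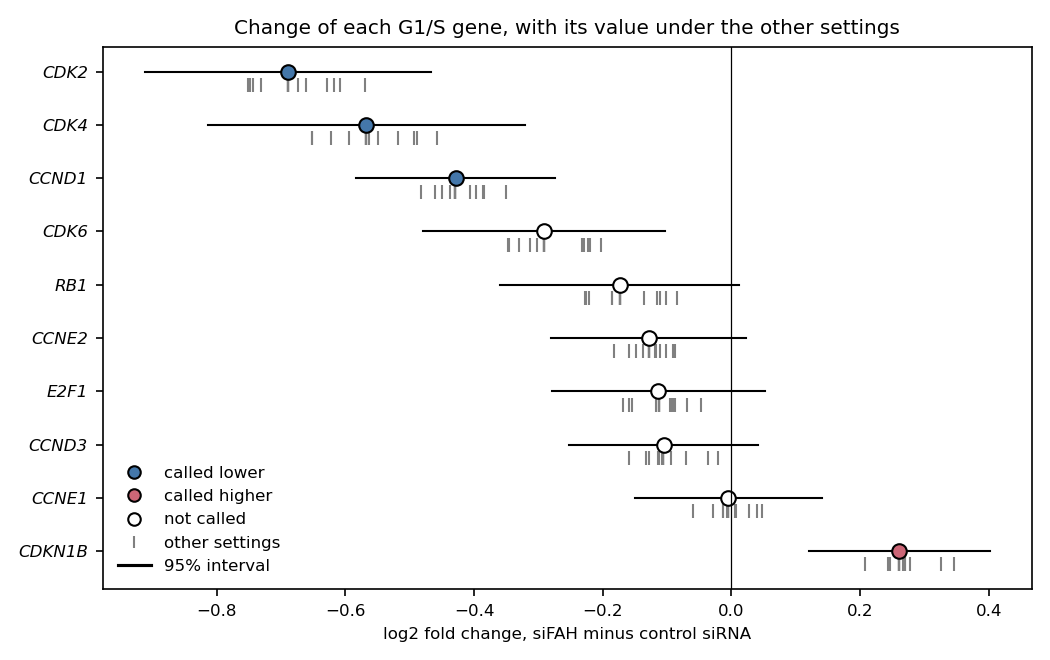
Change on the log2 scale from control siRNA to siFAH (horizontal axis) for each of the 10 genes, with limma's 95% interval as a line and the values under the other settings as gray ticks. Circles are filled blue for genes called lower, red for the gene called higher and white for genes not called, and the ticks of CDK2, CDK4, CCND1, CDK6 and CDKN1B stay on 1 side of 0 while those of CCNE1 cross it.

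The changes were then compared within arrays, as the difference of 2 genes' log2 signals on the same array, for 12 pairs of related genes. The groups did not overlap in 9 of the 12, but the pairs reuse the same genes. The share among all pairs of genes was not computed, so the count cannot be judged. For single genes the siFAH arrays lay wholly below the control arrays in 18.6% and wholly above them in 13.4%. The change of CDK2 minus that of CDK6 was -0.40 on the log2 scale, and the change of CDK2 minus those of its cyclins was -0.68 for CCNE1 and -0.56 for CCNE2, each with an exact permutation p of 0.1 (two-sided). Against CDKN1B, its inhibitor, the difference was -0.95 (exact permutation p = 0.1), the widest among the pairs. CCND1 differed from CCND3 by -0.32 and CCNE1 from CCNE2 by 0.12 (exact permutation p = 0.1 for both). CDK4 differed by -0.28 from CDK6 and by -0.46 from CCND3, and CDK6 differed by 0.14 from CCND1 (exact permutation p = 0.1 for each). The groups overlapped for CDK2 against CDK4 (-0.12, exact permutation p = 0.2), for CDK4 against CCND1 (-0.14, exact permutation p = 0.2) and for CDK6 against CCND3 (-0.19, exact permutation p = 0.3). After adjustment over the 12 pairs the smallest p was 0.133, since 0.1 is the smallest that 3 against 3 arrays allow. The pairs were chosen with the values known.

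**Figure D3:**
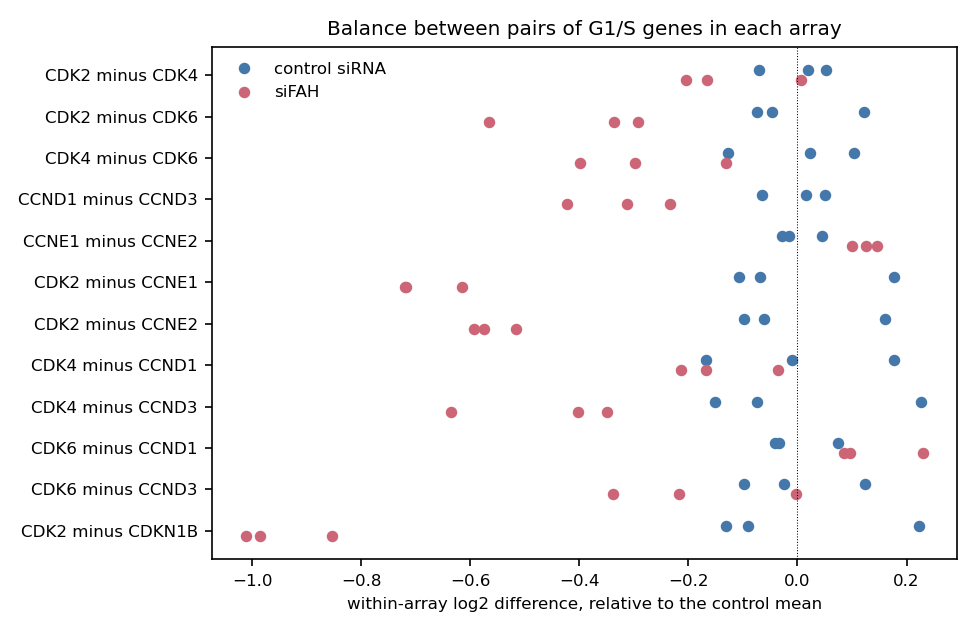
Difference between the log2 signals of 2 genes on the same array (horizontal axis), set to 0 at the mean of the control arrays, for 12 pairs of G1/S genes. Blue points are the 3 control arrays and red points the 3 siFAH arrays, and the red points of CDK2 minus CDKN1B lie farthest from 0, at a mean of -0.95.

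Other genes of the G1/S pathway were described from a list of 47 chosen for their role, with earlier results of these data known. The shares of this list beside those of all genes are therefore descriptions only. Of the 47 genes, 46 were tested. By limma, adjusted over all genes, 9 of these were called lower, 0 were called higher and 37 did not pass, so that 19.6% were called, against 9.86% of all genes tested (6.38% lower). The median log2 fold change was -0.08, against 0.0050 for all genes. With dim probe sets (genes below the median signal) left out, 11 of the 39 listed genes that remained were called, 10 lower and 1 higher. In that fit 2458 of 9186 genes were called, 1733 lower and 725 higher. Its median log2 fold change was -0.099 for the list and -0.055 for all genes kept. At an unadjusted p under 0.05, 13 of the 46 were lower and 2 higher, where 15.3% of all genes were lower and 10.8% higher. SAM at the methods' limits gave 9 lower and 1 higher, where it called 7.78% of all genes lower and 4.65% higher. Leaving out control replicate 2 left 4 calls and leaving out control replicate 3 left 5, and 3 were made without siFAH replicate 2 or siFAH replicate 3. In those 4 fits the calls over all genes also fell, from 1811 to between 657 and 739.

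The gene of this list with the largest drop was SKP2, the part of an SCF ubiquitin ligase that marks p27 protein for destruction. It read 8.24, 8.28 and 8.40 with control siRNA and 7.83, 7.74 and 7.67 with siFAH. A gap of 0.41 separated the groups, and the log2 fold change was -0.56, with an SE of 0.07 and a limma adjusted p of 0.00251. The call held when any 1 array was left out. CKS1B, the small cofactor that SKP2 needs to bind p27, had 0.30 (limma adjusted p = 0.0583) with siFAH arrays above control arrays. It was not called, and it was named after its value was seen. Whether the probe set kept for CKS1B, the brightest with that symbol, reads another locus was not checked. USP28, a deubiquitinase that protects substrates of the FBXW7 ligase, fell by 0.44 on the log2 scale (adjusted p = 0.0118), a call that also held when any 1 array was left out. FBXW7, which targets cyclin E, had -0.02 and was also named after its value was seen. Of the 12 ubiquitin ligases and cofactors tested, SKP2 and USP28 were the 2 called, or 16.7%, against 9.86% of all genes. So small a count is not read as a trait of the group.

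Among the other CDK inhibitors, CDKN1A (p21) fell, the direction opposite to that of CDKN1B. It read 7.02, 7.00 and 7.17 with control siRNA and 6.76, 6.65 and 6.80 with siFAH. The log2 fold change was -0.33, with an SE of 0.08 and a limma adjusted p of 0.0237. The adjusted p was 0.0537 without control replicate 2, 0.0754 without control replicate 3, 0.0910 without siFAH replicate 2 and 0.0510 without siFAH replicate 3. It was the 1 gene called of 5 other inhibitors tested, where 9.86% of all genes were called. CCNA2, the cyclin that takes over CDK2 in S phase, fell by 0.40 on the log2 scale (adjusted p = 0.0117, and 0.0502 without siFAH replicate 2 and 0.0505 without siFAH replicate 3). CDK1, which drives mitosis, fell by 0.31 (adjusted p = 0.0395), a call lost when any 1 of the 6 arrays was left out.

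TFDP1, the DNA-binding partner of the E2F factors, fell by 0.41 on the log2 scale (adjusted p = 0.0271, from 0.0797 to 0.103 without control replicate 2 or 3 or siFAH replicate 2 or 3). The repressor E2F7, an E2F target that limits the response, fell by 0.38 (adjusted p = 0.0128, and 0.0584 without control replicate 2 and 0.0568 without siFAH replicate 2). The other 7 E2F and DP factors tested were not called, so that 22.2% of this group were called, against 9.86% of all genes. The chromatin protein RBBP4, a subunit of the DREAM complex, fell by 0.50 (adjusted p = 0.0128, and 0.0505 without siFAH replicate 3). MYBL2, which replaces the repressors of that complex in S phase, fell by 0.36 (adjusted p = 0.0364, from 0.0917 to 0.131 without control replicate 2 or 3 or siFAH replicate 2 or 3, 0.0572 after quantile normalization and 0.0684 after cyclic loess). In 3 groups of the list no gene passed. The largest change was -0.25 for the CDK phosphatase CDC25A (adjusted p = 0.163) among CDK activators and brakes, -0.23 for RBL1 (p107, adjusted p = 0.103) among the pocket proteins, and 0.07 for cyclin D2 (CCND2, adjusted p = 0.742).

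**Figure D4:**
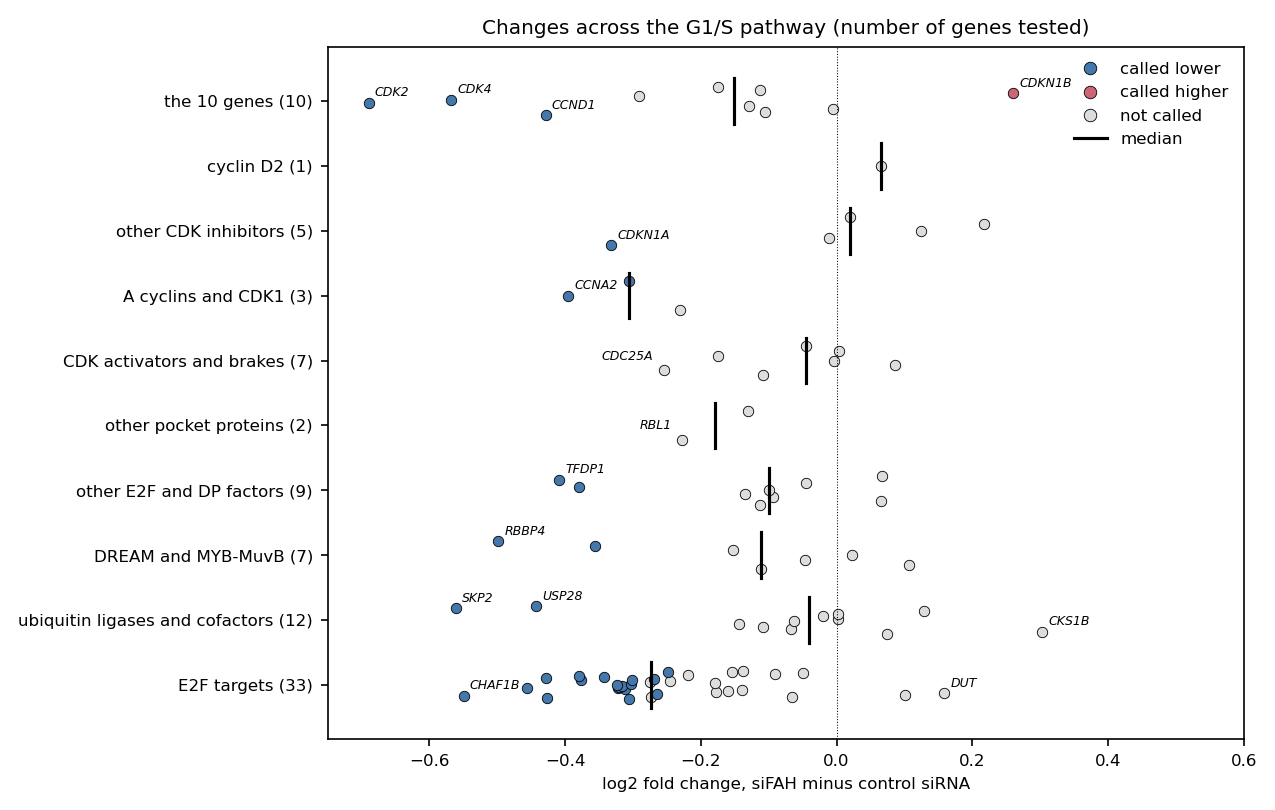
Change on the log2 scale from control siRNA to siFAH (horizontal axis) for the 10 genes, for 8 groups of other G1/S genes and for E2F targets, with the number of genes tested in parentheses. Each point is a gene, blue if called lower, red if called higher and gray if not called, and black bars are medians, -0.15 for the 10 genes and -0.27 for the E2F targets.

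A list of 35 genes known as E2F targets in S phase was also drawn up with earlier results of these data known. The shares of this list beside those of all genes are therefore descriptions only. Of the 35 genes, 33 were tested. By limma, adjusted over all genes, 18 were called lower, 0 higher and 15 did not pass, where 6.38% of all genes tested were lower and 9.86% called. Their median log2 fold change was -0.27, against 0.0050 for all genes. With genes below the median signal left out, all 33 targets remained, and 22 were called lower and 0 higher. In that fit 1733 of 9186 genes were called lower and 725 higher, and the median change of all genes kept was -0.055. With all genes kept, at an unadjusted p under 0.05, 24 of the 33 were lower and 0 higher, against 15.3% and 10.8% of all genes. SAM gave 19 lower and 0 higher, against 7.78% and 4.65%. The siFAH arrays lay below the control arrays for 24 of the 33, against 18.6% of all genes, and above them for 1, against 13.4%. The largest drops were in CHAF1B, which loads histones on new DNA (-0.55, adjusted p = 0.00544), the helicase subunit MCM3 (-0.46, adjusted p = 0.0185), RFC3, a subunit of the clamp loader (-0.43, adjusted p = 0.00996), and CDC6, which licenses origins (-0.43, adjusted p = 0.0176). The calls of MCM3 and CDC6 were lost without siFAH replicate 2 (adjusted p = 0.0549 and 0.0608) or siFAH replicate 3 (0.0704 and 0.0660). The count was 10 after cyclic loess, where 1588 of all genes were called, 893 of them lower. Leaving out control replicate 2 gave 5 and leaving out control replicate 3 gave 7, while 3 were called without siFAH replicate 2 and 4 without siFAH replicate 3. In those 4 fits the calls over all genes also fell, from 1811 to between 657 and 739. E2F1 itself was not called, and whether its change differs from that of the targets was not tested. The E cyclins, also E2F targets, are not on this list and were not called (CCNE1 -0.0048, CCNE2 -0.13). E2F7, another target that is not on the list, was called lower (-0.38).

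The stretch of the E2F1 promoter that carries E2F letters is shown as an example of the letters most of these targets hold. It is chr20:33686378-33686424 of GRCh38.p14 on the minus strand, from RefSeq, with the matches in capitals, at bases -33 and -19 from the start.
E2F1: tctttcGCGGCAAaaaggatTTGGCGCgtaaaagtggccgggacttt
The search took the word TTCCCGC, its variant with TTCGCGC letters, the related word TTGCCGC, and its variant TTGGCGC, each on both strands. They are in 13.0% of all 35116 windows, and in at least 1 window of 28 of the 31 E2F target genes that have one. The share of 13.0% counts windows and the 28 of 31 counts genes, which can have several windows, so these are unlike measures. A share over all genes was not computed. Of the 7 G1/S genes with windows only E2F1 holds any of these words. A match of letters is a description of the window and shows no binding.

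The genes whose profiles over the 6 arrays were nearest to CDK2, by the root mean square difference of log2 signals after each gene was centred on its own mean, were the alanyl-tRNA synthetase AARS1 (0.038), the membrane protease ADAM9 (0.047) and the potassium channel subunit KCNS3 (0.053). CDK2's own profile had a root mean square size of 0.37. Nearest to CCND1 were the RNA editing enzyme ADARB1 (0.022), the actin-binding protein TWF2 (0.027) and the condensin subunit NCAPD3 (0.027), against a size of 0.22 for CCND1.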

How the data were processed

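The deposited log2 signals, 1 per probe set and array, were made by the authors from Affymetrix Human Gene 1.0 ST arrays with RMA (background correction, normalization between arrays and a summary per probe set) and global scaling. The version is not given in the sources used here. Of 28829 probe sets, 19291 carry 1 gene symbol, and the brightest per symbol was kept, which left 18372 genes. Log2 signals were compared by limma 3.58.1 in R 4.3.3 (lmFit and eBayes, siFAH minus control siRNA, two-sided), with Benjamini-Hochberg adjustment across the 18372 genes and calls at an adjusted p under 0.05. The methods name SAM, which was run as an alternative with all 20 arrangements of the labels.

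The members and gene lists were chosen with earlier results of these data known. By rule the genes named are the 10 members, FAH, each called gene of the G1/S list, the largest change in each of its groups without a call, the 4 largest changes among E2F targets, and the 3 profiles nearest to CDK2 and to CCND1. Outside that rule, CKS1B and FBXW7 were named after their values were seen, and cell type markers and genes that overlap a member are named as checks. A few listed genes were not analysed here. Arrays have no read depth, and their number limits the precision. The limma step was tested on simulated data of 18372 genes for this comparison. It found 11.9% of 67 genes changed by 0.25 (log2), 94.0% of 67 changed by 0.5 and 100.0% of 66 changed by 1, and made 12 false calls. The simulated noise was normal and independent between arrays and genes. Far fewer genes were changed than were called in the data, so these shares need not hold there. The alternatives were other normalizations, a filter on dim probe sets, other tests, a replicate block, the mean of probe sets, and omission of each array in turn. Python 3.11.15 with matplotlib 3.10.9 drew the figures.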

Additional observations from a re-analysis of the deposited data

How the results depend on the processing

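Of the 11 genes CDK2, CDK4, CDK6, CCND1, CCND3, CCNE1, CCNE2, CDKN1B, RB1, E2F1 and FAH, 10 kept their direction under every setting that gave a value, and FAH has none with dim probe sets left out. CCNE1 turned to 0.039 after quantile normalization, 0.048 after cyclic loess and 0.0073 with array weights, and ran from -0.028 to 0.028 as each array was left out. CCND2 ran from -0.042 to 0.15 as each array was left out. The 4 members called became 0 with an ordinary t statistic (5 at an unadjusted p under 0.05), and 2 to 3 as each array was left out, 2 without siFAH replicate 3. The G1/S list count of 9 became 0 with that statistic (12 at an unadjusted p under 0.05), 5 with the replicate block, and 3 to 9 as each array was left out. At that unadjusted limit the same statistic had 21.4% of all genes, beside 5 of the 10 members and 12 of the 46 listed genes. The E2F target count of 18 became 10 after cyclic loess, 1 with the ordinary statistic, 5 with the replicate block, and 3 to 17 as each array was left out. Over all genes, 1811 calls became 1588 after cyclic loess, 2913 with array weights, 14 with the ordinary statistic and 761 with the replicate block. They became 657 to 1845 as each array was left out (739 and 727 without control replicates 2 and 3, 711 and 657 without siFAH replicates 2 and 3). The cause was not tested. The deviations of same-numbered arrays from their group means had correlations of -0.155, -0.0891 and -0.274. Deviations from a mean of so few arrays are tied to each other. These correlations therefore cannot tell whether same-numbered arrays shared a batch, and the labels name none. With the replicate block, CDK2, CDK4 and CCND1 stayed called and CDKN1B had an adjusted p of 0.0921.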
